A study of Mus musculus with 3 samples.

Results

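The collagen genes measured in the lungs of P14 mice were described across cell types and stromal subtypes. Members were all genes whose symbol is Col, a number, the letter a, and another number (as in *Col1a1*), which gave 44 of the 28692 genes counted in each library. All 44 had at least 1 UMI in the cells kept, and 37 had at least 100 UMIs in the 3 mice together. The 7 below that number were *Col19a1* (9 UMIs), *Col22a1* (39), *Col26a1* (47), *Col6a4* (56), *Col17a1* (57), *Col28a1* (78), and *Col20a1* (84).

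Collagens are extracellular proteins built of 3 α chains wound into a triple helix, and each chain is the product of its own gene. Fibrillar collagens (types I, II, III, V, XI, XXIV, and XXVII) form the fibers that bear load in the airway wall, vessel wall, and alveolar septum, whereas type IV collagen forms the sheet-like network of basement membranes. Type VI forms beaded filaments next to basement membranes, the FACITs (fibril-associated collagens with interrupted triple helices) sit on fibrils, the multiplexins XV and XVIII lie in basement membrane zones, and a few types span the plasma membrane. In the alveolar stage of lung development, fibroblasts lay down fibrillar collagen in the growing septa, and the alveolar epithelium and the capillary ECs share a basement membrane.

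The samples were whole lungs of 3 wild-type C57BL/6 pups kept in room air (RA) from day 1 to day 14 and taken at P14, numbered mice 2, 3, and 4, with 1 scRNA-Seq library each. They form 1 condition, so cell types were compared and the mice were the replicates. All 3 shared strain, age, and RA, and no group carried an allele or agent. A UMI is a random tag given to a transcript at its capture, by which amplified copies are recognized and not counted again. Levels are given as CPM, the UMIs of a gene scaled to 1000000 UMIs of the cell type in each mouse (mean ± SD, *n* = 3 mice).

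The files listed 3034, 3135, and 3475 cells, against 5677 stated by the submitters for the 3 mice together. Of these 9644 cells, 7642 passed the filters used here (no fewer than 200 genes, and mitochondrial UMIs of 20% or less), with 20804836 to 23442355 UMIs per mouse and medians of 7119, 4853, and 6453 UMIs per cell. Clusters were named from markers other than collagens, which gave 25 types. Of these, 22 made up the classes of 1535 stromal cells, 959 ECs, 1304 epithelial cells, and 2962 immune cells. The 141 dividing, 26 Schwann/glial-like, and 31 megakaryocyte or platelet-like cells were in none of these classes, and 684 cells in 3 clusters stayed unnamed. The library of mouse 3 stood apart in its makeup, with 1412 immune cells against 677 and 873 in mice 2 and 4. The collagen genes were left out of the clustering, but genes that vary with them in the same cells were not. Pairs of libraries shared 5, 2, and 5 barcodes. The alveolar type I (AT1)-like and pericyte-like names each included a cluster of low depth (65 cells with a median of 1053 UMIs and 42 cells with 741), and club-like cells had a median of 788.

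Collagen transcripts made up 546593 UMIs of the cells kept. The 11 fibrillar genes held 65.2% of them, the 6 basement membrane genes 21.1%, the 6 beaded-filament genes 8.74%, the 9 FACIT genes 2.55%, and the 2 multiplexin genes 1.45%. The 4 transmembrane genes held 0.562%, the 3 short-chain genes 0.368%, the anchoring fibril gene *Col7a1* 0.0386%, and the remaining genes *Col26a1* and *Col28a1* together 0.0229%. These shares count transcripts captured at their 3′ ends and are not protein amounts.

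Adventitial fibroblast-like cells, the fibroblasts of the sheath around vessels and airways, devoted the largest share of their transcripts to collagen. Collagen UMIs were 9.99%, 10.7%, and 10.6% of all UMIs of these 78 cells in mice 2, 3, and 4. The share was 2.69% ± 0.0269% in myofibroblast-like cells (444 cells), 1.82% ± 0.0478% in *Agt*/*Stc1* *Pdgfra* fibroblast-like cells (361 cells), 1.66% ± 0.113% in alveolar fibroblast-like cells (210 cells), 1.49% ± 0.0552% in pericyte-like cells (133 cells), and 1.36% ± 0.0191% in smooth muscle-like cells (291 cells). In 18 chondrocyte-like cells, which also belong to the stromal class, it was 5.65%, 3.62%, and 2.58%. Comparisons among stromal types were made over the 6 types without these cells. In each mouse the adventitial share was above that of every other stromal type, and the shares of alveolar fibroblast-like and pericyte-like cells did not overlap (1.57% to 1.79% and 1.43% to 1.54%). Outside the stromal class, Schwann/glial-like cells had 1.99% (26 cells), AT1-like cells 0.723% ± 0.0797%, *Car4*-type capillary ECs 0.597% ± 0.0803%, and *Aplnr*-type capillary ECs 0.593% ± 0.0170%. Both capillary types overlapped with each other. Arterial (0.222% to 0.260%) and venous EC-like cells (0.259% to 0.342%) lay below them. B cell-like cells had 0.0140%, led by *Col5a3* (19.9% of their collagen UMIs) and *Col27a1* (13.9%), so that the part of free RNA in this share is not known. Stromal cells were 20.1% of the cells and held 80.8% ± 3.02% of the collagen UMIs.

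**Figure D1:**
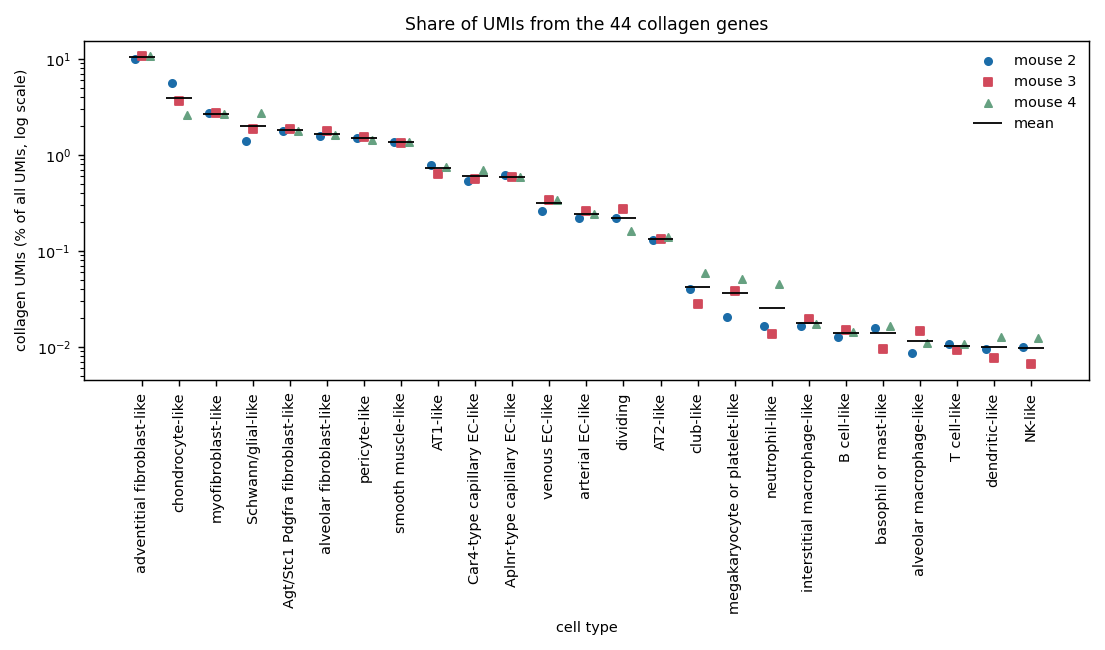
Collagen UMIs as a percentage of all UMIs in each of 25 cell types (log axis); points are the 3 mice and lines are means. The adventitial fibroblast-like points lie between 9.99% and 10.7%, above all other types, and B cell-like cells are near 0.0140%.

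Which of the 4 major classes transcribed each collagen was asked first, since the study named its stromal class from *Col1a1* and *Col1a2*. In each of the separate comparisons, most collagens tested were higher in stromal cells than in the other class. The members not called higher against ECs were all of type IV. Those against epithelial and immune cells also included members of other families. Levels of *Col1a1*, an α chain of type I collagen (chromosome 11, 94936224 to 94953042, plus strand, GRCm38), were 4684, 5233, and 3977 CPM in stromal cells of mice 2, 3, and 4. They were 26.1, 41.4, and 70.7 in ECs, 16.7, 8.91, and 17.8 in epithelial cells, and 10.2 to 11.9 in immune cells. Each stromal value lay above every value of the other classes.

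Of 44 collagens, 38 passed the filter on low counts and were tested, and 34 were higher and 2 lower in stromal cells than in ECs (31.2% and 24.6% of all 14201 genes tested were called in these directions). The filter keeps a gene that is high in 1 class alone, so the members tested are not all members, and *Col10a1*, *Col17a1*, *Col19a1*, *Col20a1*, *Col26a1*, and *Col28a1* were not tested. Against ECs, the log2 fold change was 6.76 ± 0.34 (SE) for *Col1a1* (adjusted *p* = 2.00e-10), 6.17 ± 0.34 for *Col1a2*, the other type I chain, and 6.01 ± 0.36 for *Col3a1*, the chain of type III collagen. The median over the 38 tested was 4.77, against 0.06 over all genes, and was the same with *Col6a6*, which had no EC UMI, at its bound. *Col6a6* had 270 stromal UMIs and 0 in ECs (at least 49.6-fold higher, with a floor of 3 counts over the group). The stromal class included 18 chondrocyte-like cells, which held 96.7% of the UMIs of *Col2a1*, and the cartilage gene *Col11a1* had 1137 against 1 (626-fold, exact 95% counting interval 112 to 2.48e+04). These cells also held 94.3% of the UMIs of *Col11a1*, 98.0% of *Col9a1*, 87.0% of *Col9a2*, 89.0% of *Col9a3*, and 79.0% of *Col11a2*. All of these genes are among the 34, and the count without the chondrocyte-like cells was not tested. The smallest difference called higher was that of *Col5a2* (0.73 ± 0.18, adjusted *p* = 0.00235), a type V chain. *Col4a3* was not called (-1.09 ± 0.46, adjusted *p* = 0.0585, or 0.0256 with the mouse as a block). It was called lower by DESeq2 (adjusted *p* = 0.00827), and in edgeR with marked doublets removed (0.0264), without TMM scaling, without the filter, and without mouse 3. Without mouse 2 the adjusted *p* of *Col5a2* was 0.0669, and DESeq2 gave 0.0708 for *Col15a1* (1.42 ± 0.25 in edgeR).

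Against epithelial cells, 33 collagens were higher and 2 lower in stromal cells (35.9% and 31.3% of all genes), and against immune cells 36 were higher and 0 lower (39% and 37.1% of all genes; 0 were lower also by DESeq2 and at an unadjusted *p* under 0.05 in edgeR). The medians over the 38 were 4.87 and 6.87 (4.61 and 6.78 with members at 0 UMIs in a class set to their bounds), against 0.07 and 0.03 over all genes. Against immune cells *Col4a3* and *Col5a3* were the members not called. All 11 fibrillar genes were higher in stromal than in epithelial cells, with 7.92 ± 0.36 for *Col1a1* (adjusted *p* = 3.65e-11) and 7.27 ± 0.38 for *Col3a1*. Against immune cells, *Col3a1* had 8.75 ± 0.41, *Col1a1* 8.58 ± 0.37, and *Col6a3* 8.01 ± 0.39. *Col13a1*, a transmembrane collagen, had 1452 stromal UMIs and 1 immune UMI (1.12e+03-fold, interval 200 to 4.41e+04). At least 1 *Col1a1* UMI was found in 93.8% ± 0.47% of stromal cells, 6.48% of ECs, 6.57% of epithelial cells, and 3.13% ± 1.01% of B cell-like cells. Thinned to 1000 UMIs per cell, these shares were 83.1%, 1.47%, 0.672%, and 0.791%, so that the epithelial share was at the B cell level.

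**Figure D2:**
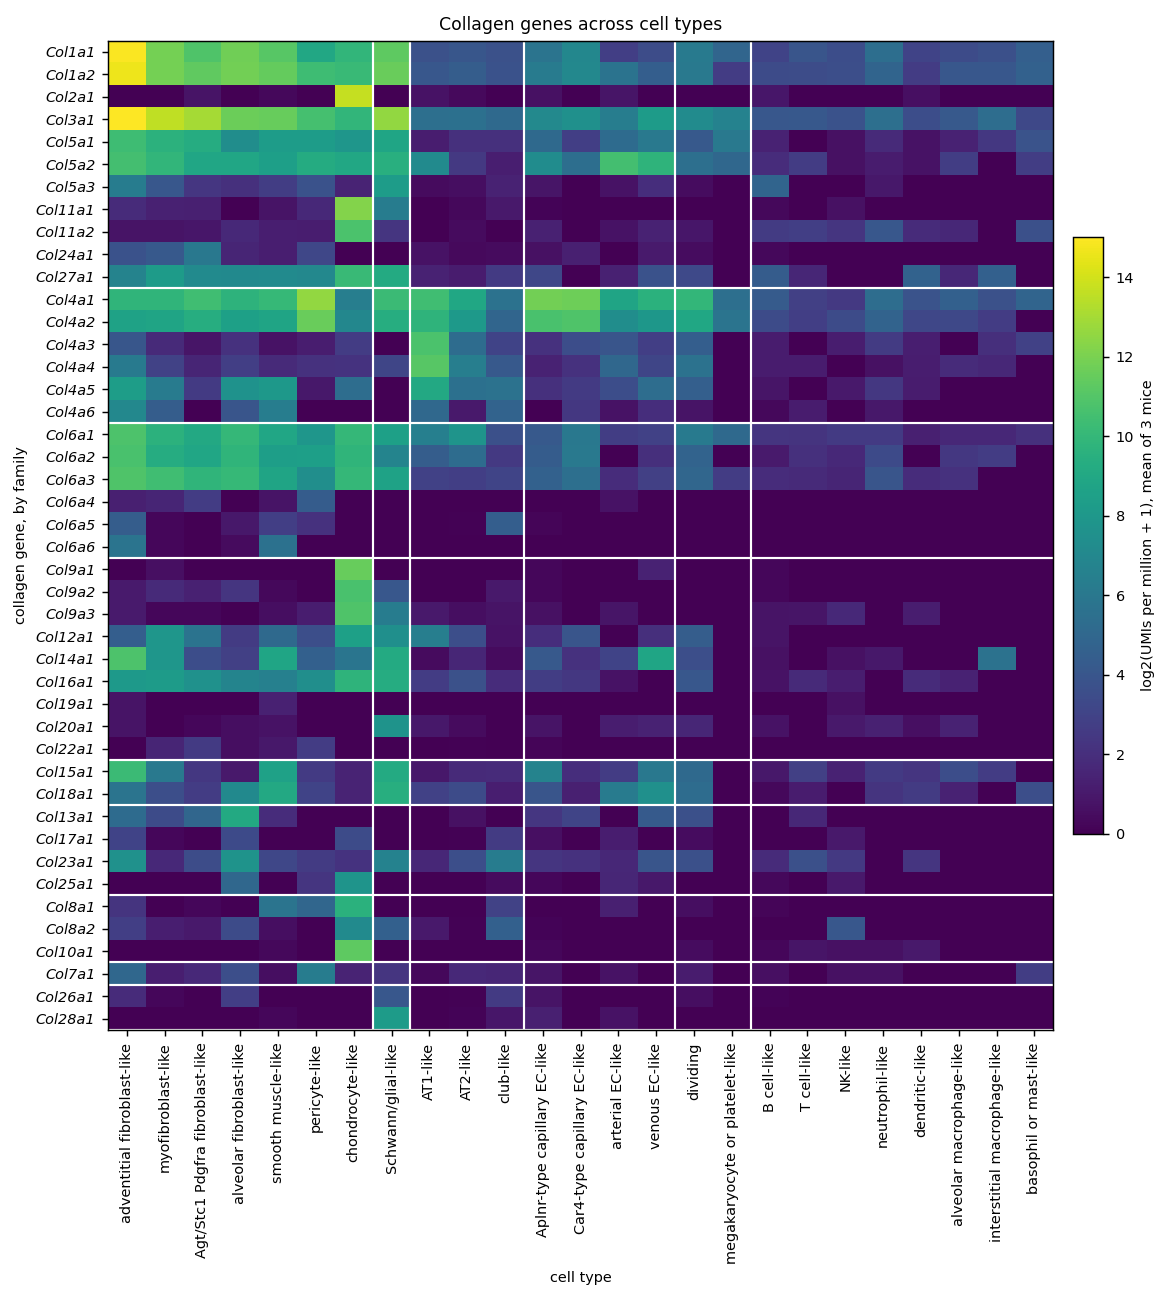
Mean log2(CPM + 1) of the 44 collagen genes, ordered by family, in 25 cell types (mean of 3 mice). High levels are bright. Fibrillar genes are bright in the stromal columns, Col4a1 and Col4a2 in pericyte-like cells and capillary ECs, Col4a3 to Col4a5 in AT1-like cells, and Col2a1, Col9a1 to Col9a3, and Col11a1 in chondrocyte-like cells.

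The fibrillar collagens of types I and III were then followed across the 6 stromal types. *Col1a1* read 30859, 32694, and 31652 CPM in adventitial fibroblast-like cells. It averaged 3702 ± 22.4 in myofibroblast-like, 3443 ± 336 in alveolar fibroblast-like, 2252 ± 53.5 in smooth muscle-like, 1873 ± 38.7 in *Agt*/*Stc1*, and 512 ± 26.1 in pericyte-like cells. The values of neighboring types in this order did not overlap, except for myofibroblast-like and alveolar fibroblast-like cells (3680 to 3725 and 3207 to 3827). *Col1a2* had 24307, 26154, and 25449 in adventitial fibroblast-like cells and 1435, 1353, and 1190 in pericyte-like cells. In edgeR, *Col1a1* was 3.30 ± 0.07 above the next type on the log2 scale (myofibroblast-like, adjusted *p* = 3.60e-22) and *Col1a2* 2.93 ± 0.08 (alveolar fibroblast-like).

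*Col3a1* (chromosome 1, 45311538 to 45349706, plus strand) was spread more widely among the fibroblasts. It read 31017, 33218, and 35482 in adventitial fibroblast-like cells, 12637, 12479, and 11844 in myofibroblast-like cells, and 8047, 8404, and 7657 in *Agt*/*Stc1* cells, with no overlap. Alveolar fibroblast-like cells (3256 ± 300) and smooth muscle-like cells (3011 ± 152) did overlap, and pericyte-like cells had 1545 ± 48.2. The adventitial level was 1.63 ± 0.07 above the myofibroblast level (log2). As a share of each type's collagen UMIs, *Col3a1* was the largest single gene in stromal cells as a class (34.3% ± 1.99%, against 18.3% ± 1.18% for *Col1a1*), and in myofibroblast-like cells it reached 45.7% ± 1.13%.

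The minor fibrillar collagens differed from this order. *Col5a1* and *Col5a2* encode chains of type V collagen, which is built into type I fibrils. *Col5a1* had 1178, 1531, and 1280 CPM in adventitial fibroblast-like cells and 159, 163, and 173 in alveolar fibroblast-like cells, where it was 1.75 ± 0.10 lower than the mean log2 level of the other 5 stromal types (adjusted *p* = 3.93e-14). *Col5a2* had 1432, 1585, and 1476 in adventitial fibroblast-like cells, and both genes were higher there than in each other stromal type (0.95 ± 0.10 and 0.84 above the nearest). *Col24a1* was the single collagen highest in *Agt*/*Stc1* *Pdgfra* fibroblast-like cells, at 61.0, 67.0, and 63.8, against 12.7, 16.9, and 21.4 in myofibroblast-like cells (1.85 ± 0.27 above them), and these cells held 68.1% of its UMIs. *Col27a1* had 272, 325, and 311 in myofibroblast-like cells and means of 104 to 142 in the other 5 types, 0.99 ± 0.14 above smooth muscle-like cells.

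**Figure D3:**
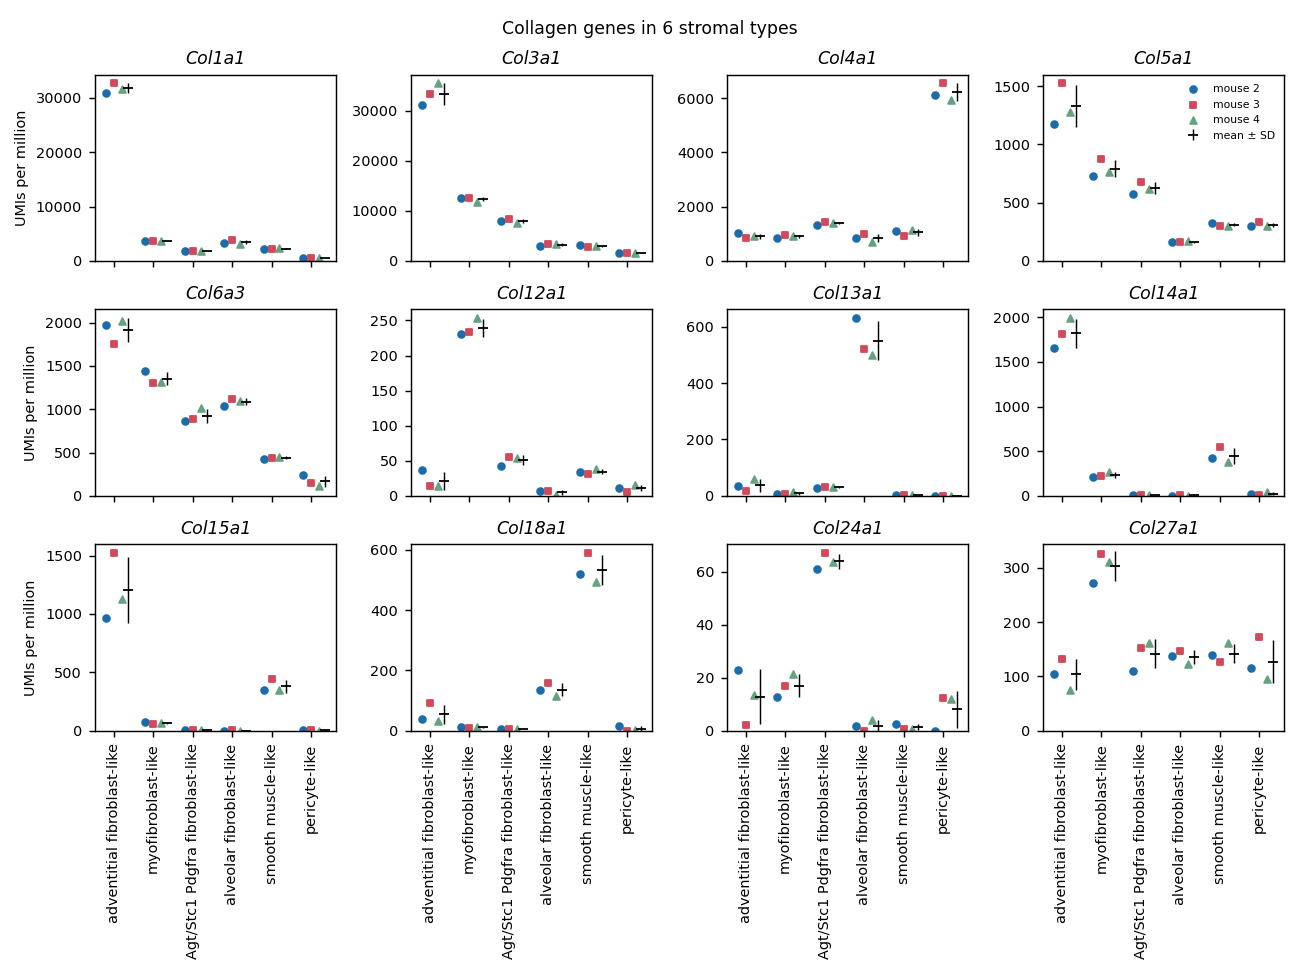
CPM of 12 collagen genes in the 6 stromal types; points are the 3 mice, with the mean ± SD. Col1a1 and Col3a1 are highest in adventitial fibroblast-like cells, Col4a1 in pericyte-like cells (5938 to 6575), Col13a1 in alveolar fibroblast-like cells (500 to 630), Col18a1 in smooth muscle-like cells (494 to 588), and Col24a1 in Agt/Stc1 cells (61.0 to 67.0).

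Type IV collagen is encoded by 6 genes in 3 head-to-head pairs, whose products combine into the common network of *Col4a1* and *Col4a2* chains and the networks of *Col4a3*, *Col4a4*, and *Col4a5* and of *Col4a5* and *Col4a6* chains. *Col4a1* (chromosome 8, 11198423 to 11312826, minus strand) and *Col4a2* (11312805 to 11449287, plus strand) overlap by 22 bases, and their annotated starts lie 21 bases apart. *Col4a4* (chromosome 1, 82448423 to 82586849, minus strand) and *Col4a3* (82586921 to 82722059, plus strand) start 72 bases apart, and *Col4a6* (chromosome X, 141165403 to 141474076, minus strand) and *Col4a5* (141475385 to 141689234, plus strand) start 1309 bases apart. The RefSeq promoter windows (GRCm38.p6, 250 bases before to 50 after the start, 5′ to 3′ on the strand of the gene) are shown for the pairs whose members were measured together below. Windows were matched for 35 of the 44 collagens, and that of *Col4a3* was not among them. Capitals in *Col4a2* (chr8:11312555-11312854, plus strand) and *Col4a1* (chr8:11312777-11313076, minus strand) mark the 78 bases that both windows share on opposite strands, and capitals in *Col4a4* (chr1:82586800-82587099, minus strand) mark the 71 bases between its start and that of *Col4a3*.
Col4a2: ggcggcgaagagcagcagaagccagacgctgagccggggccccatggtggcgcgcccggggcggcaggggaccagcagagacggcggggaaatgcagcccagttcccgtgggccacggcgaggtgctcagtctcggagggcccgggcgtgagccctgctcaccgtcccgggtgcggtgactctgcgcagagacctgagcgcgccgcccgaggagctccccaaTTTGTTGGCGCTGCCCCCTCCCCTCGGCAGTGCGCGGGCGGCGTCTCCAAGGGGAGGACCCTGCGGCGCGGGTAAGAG
Col4a1: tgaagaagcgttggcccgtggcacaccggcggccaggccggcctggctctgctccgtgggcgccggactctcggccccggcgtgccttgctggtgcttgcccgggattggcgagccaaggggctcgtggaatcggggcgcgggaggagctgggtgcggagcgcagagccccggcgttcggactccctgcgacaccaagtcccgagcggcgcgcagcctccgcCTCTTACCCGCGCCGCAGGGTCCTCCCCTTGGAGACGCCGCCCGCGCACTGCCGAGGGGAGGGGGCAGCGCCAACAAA
Col4a4: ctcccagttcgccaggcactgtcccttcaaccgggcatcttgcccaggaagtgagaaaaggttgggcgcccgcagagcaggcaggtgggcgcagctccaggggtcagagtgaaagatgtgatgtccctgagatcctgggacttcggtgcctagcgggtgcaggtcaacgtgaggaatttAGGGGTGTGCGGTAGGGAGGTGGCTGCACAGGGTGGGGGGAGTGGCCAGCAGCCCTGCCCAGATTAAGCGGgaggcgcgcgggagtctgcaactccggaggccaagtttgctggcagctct

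The *Col4a2* window held the letters GGGCGG at 3 places and CCAAT at 1, that of *Col4a1* held each at 1 place, and that of *Col4a4* held neither, on either strand. None of the 3 held TATAAA. Among the 35 collagens, 22 had GGGCGG (62.9%, against 35.7% of all 32851 windows), 13 had CCAAT (37.1%, against 37.4%), and 5 had TATAAA (14.3%, against 13.6%). Collagens were counted by gene, over any of their 38 windows, and the rest by window, so the shares are not in like units. These counts describe letters and not binding.

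*Col4a1* and *Col4a2* were the collagens called lower in stromal cells than in ECs. Within the stroma they were highest in pericyte-like cells, the mural cells of capillaries. *Col4a1* read 2972, 2655, and 2732 CPM in ECs and 1328, 1200, and 1266 in stromal cells (log2 fold change -1.03 ± 0.17, adjusted *p* = 7.93e-05). *Col4a2* read 1322, 1199, and 1310 in ECs and 631, 535, and 599 in stromal cells (-1.01 ± 0.13, adjusted *p* = 7.53e-06). No stromal value reached an EC value for either gene. In pericyte-like cells, *Col4a1* read 6121, 6575, and 5938 and *Col4a2* 3167, 3235, and 3020, the highest level of both genes among the 25 types. They were 2.19 ± 0.11 and 2.31 ± 0.13 above *Agt*/*Stc1* cells, the next stromal type (log2). Among ECs, *Col4a1* had 3896, 3493, and 3378 in *Aplnr*-type and 3251, 3561, and 3393 in *Car4*-type capillary ECs, which overlapped, 787 ± 184 in venous, and 443 ± 91.5 in arterial EC-like cells. At least 1 *Col4a1* UMI was found in 99.1% of *Aplnr*-type ECs and in 5.05% of B cell-like cells (93.7% and 1.59% at 1000 UMIs).

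*Col4a3* and *Col4a4* were the collagens lower in stromal than in epithelial cells, and their UMIs lay mostly in AT1-like cells, the flat cells of the gas-exchange surface. *Col4a3* read 1910, 1552, and 1802 in AT1-like cells and 36.7, 41.3, and 37.4 in alveolar type II (AT2)-like cells. *Col4a4* read 2411, 1920, and 2374 against 86.5, 78.8, and 88.6, and *Col4a5* 562, 478, and 560 against 45.6 ± 6.54. The types did not overlap for any of the 3 genes. Epithelial cells held 96.6% of the UMIs of *Col4a3* and 94.7% of those of *Col4a4*, and the stromal levels were 6.95 ± 0.25 and 5.65 ± 0.26 lower (log2, adjusted *p* = 3.22e-12 and 4.67e-11). UMIs of *Col4a5* were split between stromal (48.2% ± 12.6%) and epithelial cells (48.6% ± 13.2%), with a wide spread over mice. Its stromal and epithelial levels were not called different (-0.07 ± 0.15, adjusted *p* = 0.704). Without mouse 3, the stromal level was called lower in edgeR (-0.37, adjusted *p* = 0.0183).

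The stromal part of these chains was uneven. *Col4a5* read 269, 381, and 325 in adventitial fibroblast-like cells, 235, 290, and 239 in smooth muscle-like cells, and 223, 196, and 180 in alveolar fibroblast-like cells, but had 1 UMI in pericyte-like cells (ratio to the other stromal types 0.0096, interval 0.000243 to 0.0536). *Col4a6* read 79.9, 161, and 149 in adventitial fibroblast-like cells and 75.8, 84.3, and 81.0 in smooth muscle-like cells, which overlapped, and 34.4, 14.0, and 47.8 in AT1-like cells. It had 0 UMIs in pericyte-like and *Agt*/*Stc1* cells. *Col4a4* had 59.4, 62.7, and 94.8 in adventitial fibroblast-like cells, above each other stromal type by 3.49 or more. The calls that *Col4a3* (2.18 ± 0.68), *Col4a5* (0.46 ± 0.16), and *Col4a6* (0.78 ± 0.23) were higher in adventitial fibroblast-like cells than in each other stromal type were lost without mouse 3 and without mouse 4, and that of *Col4a3* without mouse 2 as well. The call of *Col4a5* was also lost at a resolution of 1.2 and without TMM scaling.

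The beaded-filament chains *Col6a1*, *Col6a2*, and *Col6a3* had like levels in adventitial and alveolar fibroblast-like cells and unlike levels in AT2-like cells. In adventitial fibroblast-like cells they read 1859, 1873, and 1632, then 1850, 1710, and 1388, then 1973, 1759, and 2018 CPM, respectively. Alveolar fibroblast-like cells came next for *Col6a1* (1032 ± 80.5) and *Col6a2* (921 ± 102) and myofibroblast-like cells for *Col6a3* (1351 ± 75.8). All 3 genes were higher in adventitial fibroblast-like cells than in each other stromal type (0.90, 0.95, and 0.70 ± 0.13 above the nearest). In AT2-like cells, which make surfactant, *Col6a1* read 231, 235, and 192, *Col6a2* 43.0, 37.1, and 36.6, and *Col6a3* 5.95 ± 1.37. *Col6a1* UMIs were found in 85.3% ± 3.91% of AT2-like and 1.72% of B cell-like cells (18.8% ± 2.19% and 0.427% at 1000 UMIs). *Col6a6* had 52.5, 101, and 6.77 in adventitial fibroblast-like and 42.9, 46.6, and 53.5 in smooth muscle-like cells, a difference that was not called (0.38 ± 0.37, adjusted *p* = 0.504), and 0 UMIs in pericyte-like and *Agt*/*Stc1* cells. *Col6a5* read 26.3, 11.3, and 25.6 in club-like cells. Its mean there (21.1) was the highest of the types but near that of adventitial fibroblast-like cells (20.4).

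Among the FACITs, which coat fibrils, *Col12a1* and *Col14a1* peaked in different fibroblasts. *Col12a1* read 230, 234, and 253 in myofibroblast-like cells and 42.8, 55.4, and 54.2 in *Agt*/*Stc1* cells, 2.28 ± 0.14 lower. *Col14a1* read 1660, 1813, and 1988 in adventitial fibroblast-like cells, 425, 552, and 378 in smooth muscle-like cells, and 211, 219, and 266 in myofibroblast-like cells, but a mean of 6.05 in alveolar fibroblast-like cells. Its adventitial level was 2.11 ± 0.19 above the smooth muscle level. *Col16a1* read 331, 242, and 274 in adventitial fibroblast-like and 282, 314, and 305 in myofibroblast-like cells, which overlapped and were not called different (adjusted *p* = 0.628).

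The multiplexins, whose C-terminal fragments include endostatin in *Col18a1* (chromosome 10, 77052178 to 77166548, minus strand), peaked in different types of the 6. *Col18a1* read 518, 588, and 494 in smooth muscle-like cells and 137, 159, and 114 in alveolar fibroblast-like cells, a difference of 1.95 ± 0.16, and no mouse overlapped. *Col15a1* read 964, 1520, and 1131 in adventitial fibroblast-like and 352, 445, and 348 in smooth muscle-like cells (1.77 ± 0.16 apart), and had 3 UMIs in alveolar fibroblast-like cells (ratio to the other stromal types 0.00596, interval 0.00123 to 0.0174). Multiplexins were 6.74% ± 0.85% of the collagen UMIs of smooth muscle-like cells and 1.45% of all collagen UMIs.

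Of the transmembrane collagens, *Col13a1* and *Col25a1* were higher in alveolar fibroblast-like cells, the resident fibroblasts of the alveolar wall, than in each other of the 6 stromal types compared. *Col13a1* (chromosome 10, 61838236 to 61979108, minus strand) read 630, 521, and 500 there, 34.3, 15.7, and 61.0 in adventitial fibroblast-like cells, and 28.5, 32.2, and 30.5 in *Agt*/*Stc1* cells. No other stromal type overlapped with the alveolar fibroblast values, and the difference from the next type was 3.90 ± 0.24 (log2). These cells held 79.3% of its UMIs. *Col13a1* UMIs were found in 77.7% ± 6.99% of them and in 0 of 1784 B cell-like cells, which allows a share of cells with a UMI of up to 0.168%. *Col23a1* read 221, 193, and 224 in alveolar fibroblast-like and 137, 262, and 183 in adventitial fibroblast-like cells, which overlapped (adjusted *p* = 0.972), and at most 10.1 on average in the other 4. *Col25a1* read 40.7, 32.4, and 21.1 in alveolar fibroblast-like cells, had 3 UMIs in pericyte-like cells, and had none in the other 4 of the 6 types (155-fold over the other 5 types pooled, interval 51 to 771). Chondrocyte-like cells, which were not tested, had a higher level (140 to 318).

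The low members of the anchoring fibril and short-chain families had lower counts. *Col7a1*, the collagen of anchoring fibrils, read 89.0, 67.7, and 75.1 in pericyte-like and 52.5, 31.3, and 10.2 in adventitial fibroblast-like cells, which did not overlap but were not called different (1.02 ± 0.41, adjusted *p* = 0.0583). This call moved with the settings. The pericyte level was above all 5 other types with marked doublets removed, at a resolution of 0.4, without TMM scaling, and without the filter on low counts. *Col8a1* read 77.1, 9.63, and 73.2 in smooth muscle-like and 45.9, 12.3, and 31.6 in pericyte-like cells, low in mouse 3 in both types. Its smooth muscle level was not above that of pericyte-like cells (adjusted *p* = 0.334), though with the mouse as a block it was above all 5.

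The 6 stromal types were then compared across all collagens. Of 44 collagens, 28 passed the filter on low counts in these types, and 23 of the 28 (82.1%) were higher in 1 type than in each of the other 5, against 20.8% of all 10600 genes tested. Adventitial fibroblast-like cells had 15 of them (4.01% of all genes were so called in this type), myofibroblast-like cells 2 (1.11%), alveolar fibroblast-like cells 2 (4.35%), pericyte-like cells 2 (5.97%), smooth muscle-like cells 1 (4.52%), and *Agt*/*Stc1* cells 1 (0.83%). The 15 were *Col1a1*, *Col1a2*, *Col3a1*, *Col4a3* to *Col4a6*, *Col5a1* to *Col5a3*, *Col6a1* to *Col6a3*, *Col14a1*, and *Col15a1*. This comparison was added after the data had been seen. The filter keeps a gene that is high in 1 type alone, so the share of 82.1% holds for the members tested and not for all 44. Of the 23, *Col25a1* had 0 UMIs in 4 of the 6 types, *Col4a6* in 2, and *Col13a1* in 1. At a clustering resolution of 0.4, at which the cartilage-type cells joined the adventitial fibroblast-like cluster, 29 genes were so called, of which 18 were among the 23.

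Against the mean of the log2 levels of the other 5 stromal types, adventitial fibroblast-like cells had 21 collagens higher and 2 lower (16.8% and 9.07% of all genes), the latter *Col4a1* (-0.51 ± 0.09) and *Col4a2* (-0.59 ± 0.11). The higher members included *Col6a6* (6.53 ± 0.60), *Col15a1* (6.44 ± 0.15), *Col14a1* (5.48 ± 0.15), *Col4a6* (5.45 ± 0.37), and *Col4a4* (4.44 ± 0.33), and *Col1a1* had 4.21 ± 0.04 (adjusted *p* = 7.94e-31). Pericyte-like cells had 5 higher and 14 lower (15.2% and 14.1%), with *Col8a1* (4.94 ± 0.94), *Col7a1* (4.32 ± 0.38), *Col4a2* (2.71 ± 0.08), and *Col4a1* (2.53 ± 0.07) higher and *Col1a1* (-3.21 ± 0.07), *Col15a1* (-3.19 ± 0.65), *Col6a3* (-2.64 ± 0.15), and *Col3a1* (-2.46 ± 0.07) lower. *Col13a1* had 0 UMIs in pericyte-like cells against 1452 in the other types (at least 22.4-fold lower). Smooth muscle-like cells had 7 higher and 15 lower (19.3% and 13.2%), the higher including *Col6a6* (6.07 ± 0.50), *Col8a1* (5.90 ± 0.56), *Col18a1* (4.67 ± 0.13), *Col4a6* (4.51 ± 0.34), and *Col15a1* (4.32 ± 0.17), with *Col7a1* lower (2 against 142 UMIs, ratio 0.0443, interval 0.00531 to 0.163). *Col4a6*, *Col6a6*, and *Col8a1* each had 0 UMIs in 2 of the 6 types, so their fitted differences depend on the prior count and their rank is not known.

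Alveolar fibroblast-like cells had 10 collagens higher and 10 lower (18.9% and 13.3% of all genes). *Col13a1* (6.76 ± 0.18), *Col23a1* (4.34 ± 0.17), *Col4a5* (2.60 ± 0.20), and *Col18a1* (2.33 ± 0.19) were higher, and *Col14a1* (-4.22 ± 0.35), *Col12a1* (-2.85 ± 0.34), *Col24a1* (-2.45 ± 0.69), and *Col5a1* were lower. With the mouse as a block, *Col7a1* was no longer called (adjusted *p* = 0.0501). Myofibroblast-like cells had 14 higher and 5 lower (14.4% and 9.76%), with *Col12a1* (3.59 ± 0.13), *Col3a1* (1.17 ± 0.05), and *Col27a1* (1.16 ± 0.10) higher and *Col23a1* (-3.61 ± 0.52), *Col7a1* (-2.87 ± 0.69), *Col18a1* (-2.05 ± 0.31), *Col4a1* (-0.77 ± 0.09), and *Col4a2* (-0.65 ± 0.10) lower. *Agt*/*Stc1* cells had 5 higher and 12 lower (13.3% and 11.2%), with *Col24a1* (3.45 ± 0.26) higher and *Col4a5* (-3.93 ± 0.93), *Col14a1* (-3.70 ± 0.30), *Col15a1* (-3.50 ± 0.54), and *Col18a1* (-3.41 ± 0.38) lower, and with the mouse as a block *Col5a3* was called lower too (adjusted *p* = 0.0387). The mean of logs weights a low type as much as a high type, and in some calls the plain mean of the other 5 types pointed the other way. These were *Col1a1*, *Col4a5*, *Col4a6*, *Col14a1*, *Col15a1*, and *Col24a1* in myofibroblast-like cells, *Col1a1* and *Col7a1* in alveolar fibroblast-like cells, *Col13a1* and *Col18a1* in adventitial fibroblast-like cells, *Col25a1* in pericyte-like cells, and *Col3a1*, *Col12a1*, and *Col13a1* in *Agt*/*Stc1* cells.

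**Figure D4:**
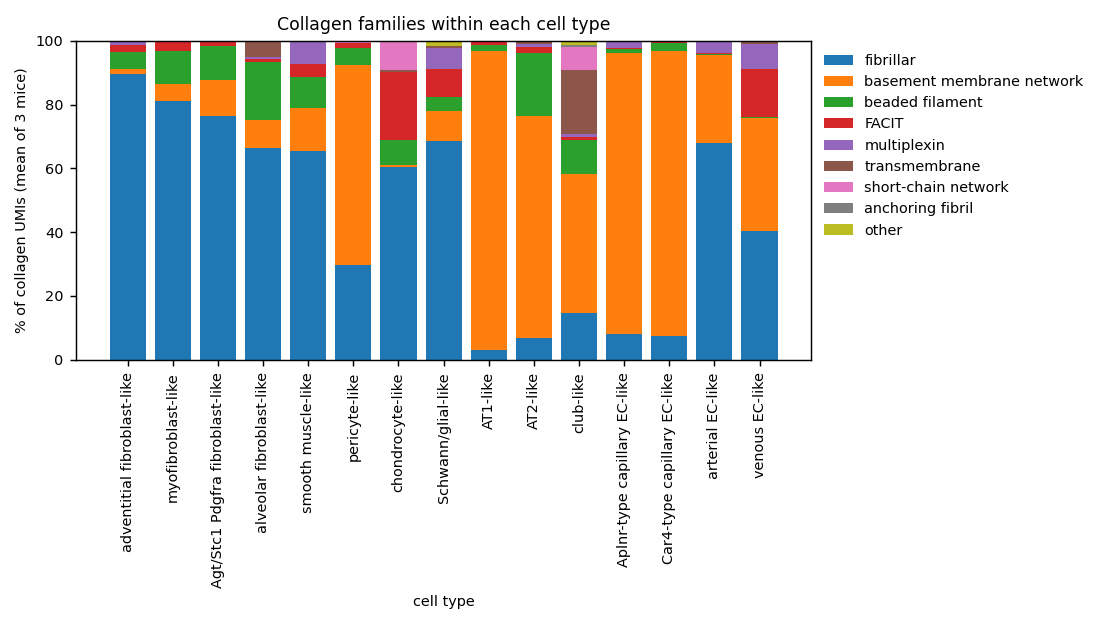
Share of collagen UMIs held by each collagen family (stacked bars, mean of 3 mice, in percent) in 15 cell types. Fibrillar genes make up 89.5% in adventitial fibroblast-like cells, basement membrane genes 93.9% in AT1-like and 62.7% in pericyte-like cells, and in arterial EC-like cells fibrillar genes make up 68.0%.

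The makeup of collagen transcripts followed these differences. Fibrillar genes were 89.5% ± 0.37% of collagen UMIs in adventitial fibroblast-like cells, 81.0% in myofibroblast-like cells, 66.5% in alveolar fibroblast-like cells, and 29.8% in pericyte-like cells. Basement membrane genes were 62.7% ± 1.1% in pericyte-like, 88.3% in *Aplnr*-type, 89.2% in *Car4*-type, and 93.9% ± 1.5% in AT1-like cells. Alveolar fibroblast-like cells had the largest beaded-filament (18.3% ± 0.15%) and transmembrane (4.87% ± 0.76%) shares of the 6 stromal types. AT2-like cells had 69.6% basement membrane and 19.7% beaded-filament UMIs, the latter mainly *Col6a1* (16.3% ± 2.21% of collagen UMIs).

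AT1-like and AT2-like cells were compared directly for the 17 collagens tested. In AT1-like cells 8 were higher and 5 lower (24% and 23.2% of all 10418 genes). All 6 type IV genes were among the 8, with log2 fold changes of 5.30 ± 0.12 for *Col4a3* (adjusted *p* = 6.71e-16), 4.75 ± 0.41 for *Col4a6*, 4.50 ± 0.12 for *Col4a4*, 3.33 ± 0.10 for *Col4a5*, 1.47 ± 0.09 for *Col4a2*, and 1.24 ± 0.10 for *Col4a1*. *Col4a1* read 1450, 1208, and 1434 in AT1-like and 469, 495, and 527 in AT2-like cells, with no overlap. The other members called higher were *Col5a2* (146, 114, and 182 against 4.82, 3.52, and 5.30, 4.81 ± 0.18) and *Col12a1* (135, 52.0, and 70.5 against 11.2, 11.3, and 11.1, 2.77 ± 0.23). The 5 lower were *Col23a1* (-2.53 ± 0.39), *Col16a1* (-1.78 ± 0.50), *Col6a1* (-1.63 ± 0.16), *Col6a2* (-1.31 ± 0.22), and *Col18a1* (-0.93 ± 0.36, adjusted *p* = 0.0403). *Col6a1* read 72.0, 130, and 68.2 in AT1-like cells, below each AT2 value. Without mouse 4, 3 collagens were lower. At least 1 *Col4a3* UMI was found in 79.7% ± 8.77% of AT1-like, 38.2% of AT2-like, and 0.552% of B cell-like cells, and at 1000 UMIs the AT1 and AT2 shares were 71.6% and 3.63%.

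In ECs, the fibrillar gene *Col5a2* had higher levels in the arterial and venous than in the capillary types (chromosome 1, 45374321 to 45503282, minus strand). It read 1321, 1490, and 1582 CPM in arterial and 747, 833, and 1003 in venous EC-like cells, with no overlap, against 156 ± 6.32 in *Aplnr*-type ECs, and was 60.7% ± 4.1% of the collagen UMIs of arterial EC-like cells. The arterial level was near that of adventitial fibroblast-like cells (1498 ± 78.5), and the values overlapped. *Col5a1*, its usual partner, read 10.1, 46.5, and 52.7 in arterial EC-like cells. *Col5a2* UMIs were found in 90.7% of arterial, 92.3% of venous EC-like, and 1.18% of B cell-like cells (68.1%, 51.7%, and 0.268% at 1000 UMIs). Venous EC-like cells also had *Col14a1*, at 477, 433, and 451, against 10.1, 0, and 11.7 in arterial EC-like cells. No test across these EC types was made.

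*Car4*-type and *Aplnr*-type capillary ECs were compared for the 13 collagens tested, of which 3 were higher and 4 lower in *Car4*-type ECs (9.94% and 11.1% of all 8756 genes). *Col15a1* read 0, 0, and 8.92 in *Car4*-type and 127, 105, and 84.1 in *Aplnr*-type ECs (2 against 679 UMIs, ratio 0.0309, interval 0.00374 to 0.112, adjusted *p* = 5.20e-06). *Col5a2* (-1.79 ± 0.30), *Col5a1* (-2.38 ± 0.77), and *Col14a1* (2 against 110 UMIs, ratio 0.191, interval 0.0228 to 0.706) were also lower. *Col12a1* (2.28 ± 0.65, on 9 and 19 UMIs), *Col6a1* (1.87 ± 0.42), and *Col6a2* (1.86 ± 0.44) were higher, *Col6a1* with 46.3, 71.6, and 71.3 against 8.19 to 25.8. *Col4a1* (-0.07 ± 0.12) and *Col4a2* (0.18 ± 0.11) were not called. The counts of calls moved with the settings, to 1 higher at a resolution of 1.2 and to 2 lower without mouse 2 or mouse 3.

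ECs as a class had 13 collagens higher and 12 lower than epithelial cells. These were 34.2% and 31.6% of the 38 tested, near the shares of all genes (33.7% and 32.6%), so the counts do not set collagens apart. The higher members included *Col14a1* (4.67 ± 0.28), *Col15a1* (4.51 ± 0.41), *Col5a2* (3.76 ± 0.21), *Col5a1* (3.06 ± 0.27), *Col13a1* (2.92 ± 0.61), and *Col4a1* (1.85 ± 0.17, adjusted *p* = 1.43e-07), and the lower members *Col4a4* (-6.12 ± 0.29), *Col4a3* (-5.86 ± 0.24), *Col4a5* (-4.11 ± 0.23), *Col6a1* (-3.84 ± 0.22), and *Col12a1* (-3.06 ± 0.30). *Col1a1*, *Col1a2*, *Col3a1*, and *Col6a3* were called higher in ECs, and these calls were lost with stricter filters on cells (no fewer than 500 genes, and mitochondrial UMIs of 10% or less).

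Against immune cells, ECs had 19 collagens higher and 3 lower (34.3% and 35.2% of all genes), and epithelial cells 18 higher and 3 lower (38.2% and 37.3%). *Col5a2* (7.17 ± 0.29) and *Col4a1* (7.03 ± 0.22) led in ECs, and *Col4a4* (8.44 ± 0.37) and *Col4a3* (7.49 ± 0.28) in epithelial cells. With doublets kept, the members lower than in immune cells were *Col5a3*, *Col11a2*, and *Col27a1* in both comparisons. With marked doublets removed, *Col1a1* (0.34, adjusted *p* = 0.279), *Col6a3*, and *Col16a1* were no longer called higher in ECs. In epithelial cells, *Col1a2* (-0.27, adjusted *p* = 0.485), *Col3a1* (0.13, adjusted *p* = 0.785), and *Col8a2* lost the call. *Col1a1* (-0.64, adjusted *p* = 0.0446) and *Col15a1* (-1.77, adjusted *p* = 0.0441) were then called lower in epithelial cells, as was *Col8a2* in ECs.

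*Col5a3*, another chain of type V collagen, was the collagen with the largest immune share, 38.4% of its UMIs. It read 22.1, 37.7, and 24.5 in B cell-like cells, which held 235 of its 572 UMIs, and had no UMI in 139 T cell-like cells, which allows a share of cells with a UMI of up to 2.16%. UMIs were found in 5.18% ± 1.45% of B cell-like cells (2.75% ± 0.582% at 1000 UMIs). It was 4.37 ± 0.51 lower in ECs than in immune cells (log2, adjusted *p* = 2.06e-06), and stromal and immune levels were not called different (-0.44 ± 0.30, adjusted *p* = 0.195). Its highest level was in Schwann/glial-like cells, at 179, 381, and 403, and adventitial fibroblast-like cells had 70.8, 107, and 61.0.

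Small cell types carried many of the rarer collagens. In 18 chondrocyte-like cells (3, 11, and 4 per mouse), *Col2a1*, the main cartilage collagen, read 23294, 10005, and 6601 CPM, and these cells held 96.7% of its UMIs. The cartilage that these cells came from is not known. *Col11a1* read 7626, 3187, and 3480, *Col11a2* 2298, 1637, and 1340, *Col9a1* 2933, 1761, and 4101, *Col9a2* 2346, 832, and 1814, and *Col9a3* 3055, 1194, and 1503. The 3 mice differed widely but each lay far above the other types. *Col10a1*, the collagen of hypertrophic cartilage, read 0, 7580, and 0, so that 1403 of its 1413 UMIs came from the chondrocyte-like cells of mouse 3. *Col8a1* (1589, 270, and 490), *Col8a2* (122, 167, and 147), *Col27a1* (1295, 724, and 1438), *Col16a1* (1344, 632, and 686), *Col12a1* (538, 411, and 163), and *Col25a1* (318, 140, and 196) also had their highest or near-highest levels there.

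In 26 Schwann/glial-like cells (9, 9, and 8 per mouse), *Col28a1* read 144, 208, and 567 (61 of its 78 UMIs) and *Col20a1* 83.7, 312, and 238 (47 of its 84 UMIs). *Col18a1* read 478, 866, and 732, overlapping with smooth muscle-like cells. With fewer than 10 cells in at least 1 mouse, neither of these types was tested. Over all 25 types, the highest mean level was in chondrocyte-like cells for 14 collagens, adventitial fibroblast-like for 12, Schwann/glial-like for 5, pericyte-like for 5, AT1-like for 3, alveolar fibroblast-like for 2, and *Agt*/*Stc1*, club-like, and smooth muscle-like cells for 1 each. Some of these ranks rest on few UMIs in the top type and are not reliable. They include *Col17a1* (2 UMIs in chondrocyte-like cells), *Col26a1* (4 in Schwann/glial-like), *Col22a1* (4 in pericyte-like), and *Col19a1* (7 in smooth muscle-like cells).

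The ratio of chains of 1 collagen type was compared between cell types, since a gene's capture efficiency cancels in such a comparison. *Col1a1* over *Col1a2* UMIs was 1.25 ± 0.0134 in adventitial fibroblast-like, 1.00 ± 0.0526 in myofibroblast-like, 0.968 in alveolar fibroblast-like, 0.799 ± 0.0183 in smooth muscle-like, 0.704 ± 0.0122 in *Agt*/*Stc1*, and 0.390 ± 0.0529 in pericyte-like cells. *Col4a1* over *Col4a2* was 2.18 in *Aplnr*-type ECs, 1.98 ± 0.0506 in pericyte-like cells, 1.57 ± 0.0929 in AT1-like cells, and 3.13 ± 0.0440 in venous EC-like cells. *Col4a3* over *Col4a4* was 0.787 ± 0.0251 in AT1-like and 0.457 ± 0.0581 in AT2-like cells. *Col6a1* over *Col6a2* was 1.17 ± 0.0334 in stromal cells, 0.666 ± 0.0594 in pericyte-like cells, and 5.66 ± 0.597 in AT2-like cells. *Col5a1* over *Col5a2* was 1.30 ± 0.0709 in *Agt*/*Stc1*, 0.349 ± 0.0112 in alveolar fibroblast-like, and 0.0741 ± 0.0234 in venous EC-like cells. These ratios are given as descriptions, and no test of them was made.

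**Figure D5:**
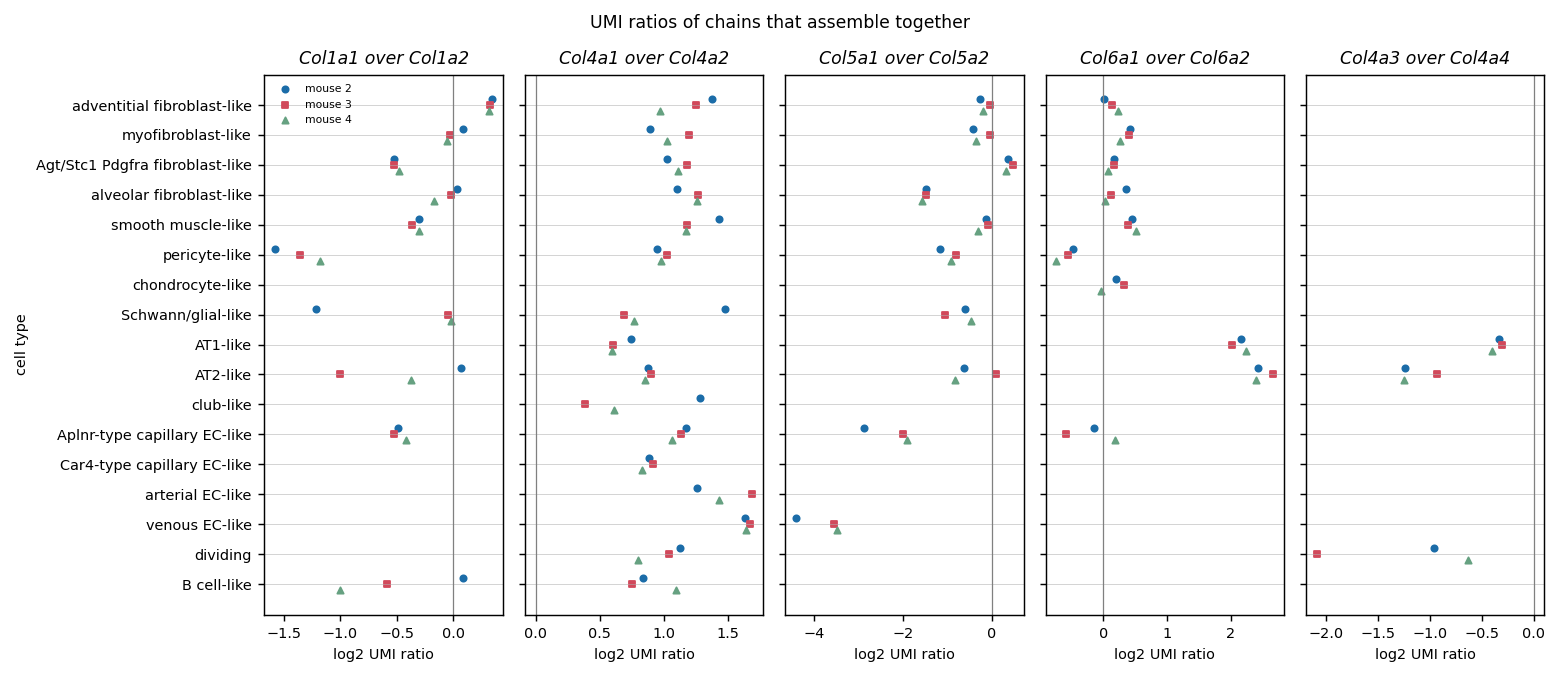
Log2 UMI ratios of 5 pairs of collagen chains by cell type; points are the 3 mice, and types with fewer than 10 UMIs of a chain in a mouse are not shown. Mean log2 ratios of Col6a1 over Col6a2 run from -0.591 (pericyte-like) to 0.443 (smooth muscle-like) in the stromal types and reach 2.49 in AT2-like cells. Those of Col5a1 over Col5a2 span 0.380 (Agt/Stc1) to -3.81 (venous EC-like).

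Across the 25 types, levels of chain pairs were correlated (log2(CPM + 1), mean of the 3 mice, points sharing libraries). Pearson's *r* and Spearman's ρ were 0.972 and 0.838 for *Col1a1* and *Col1a2*, 0.948 and 0.968 for *Col4a1* and *Col4a2*, 0.853 and 0.622 for *Col4a3* and *Col4a4*, 0.833 and 0.777 for *Col4a5* and *Col4a6*, 0.851 and 0.813 for *Col5a1* and *Col5a2*, and 0.924 and 0.867 for *Col6a1* and *Col6a2*. *Col1a1* and *Col3a1*, which are not chains of 1 collagen, had 0.942 and 0.821, so that such values were not particular to chain pairs.

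Genes that modify, cleave, cross-link, and bind collagen were followed on lists of 45 genes, of which 43 were tested in the class comparisons. Between stromal cells and ECs, 35 were higher and 5 lower (31.2% and 24.6% of all genes). By role, 16 of 20 genes for modification and folding were higher and 2 lower, as were 5 and 1 of 6 for propeptide cleavage, 4 and 0 of 4 for cross-linking, 5 and 0 of 5 fibril-associated proteoglycans, and 5 and 2 of 8 receptors. *Dcn*, the proteoglycan decorin (8.21 ± 0.40), *Adamts2*, a procollagen N-proteinase (6.20 ± 0.17), *Loxl1*, a cross-linking oxidase (5.57 ± 0.17), and *Serpinh1*, the collagen chaperone HSP47 (0.69 ± 0.15), were higher. *Itga2*, an integrin subunit of a collagen receptor (-5.58 ± 0.29), and *Tll1*, a procollagen C-proteinase (-5.72 ± 0.51), were lower.

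In adventitial fibroblast-like cells, 26 of 40 such genes were higher than the mean log2 level of the other stromal types and 4 lower (16.8% and 9.07% of all genes), with *Dcn* at 9.68 ± 0.22, *Lum* at 8.10 ± 0.20, *Lox* at 2.41 ± 0.11, and *Serpinh1* at 0.96 ± 0.07. Myofibroblast-like cells had 16 higher and 5 lower (14.4% and 9.76%), with *P4ha3*, a prolyl 4-hydroxylase subunit, at 5.54 ± 0.20 and *Loxl2* at 1.99 ± 0.10. Pericyte-like cells had 8 higher and 17 lower (15.2% and 14.1%), with the collagen receptor subunit *Itga1* higher (4.83 ± 0.13) and *Lox* (-4.14 ± 0.27) and *Adamts2* (-4.37 ± 0.16) lower. In AT1-like against AT2-like cells, 17 of 29 were higher and 3 lower (24% and 23.2%), with *Lox* at 5.06 ± 0.20, *Plod2*, a lysyl hydroxylase, at 4.84 ± 0.15, and the collagen receptor *Ddr1* at 3.65 ± 0.11.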

How the data were processed

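scRNA-Seq was done on whole lungs of 3 mice, 1 library each, with 16000 cells loaded per well per the labels. The authors processed each library with Cell Ranger 3.0.2 (mm10 in the submitters' processing notes; the annotation is not given in the sources used here) and deposited raw UMI counts, without normalization. The paper's Seurat normalization and SingleR cell types come after these files and were not used.

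Cells with 200 or more genes and no more than 20% mitochondrial UMIs were merged, normalized with SCTransform, and clustered (30 principal components, resolution 0.8) in Seurat 5.3.0 (sctransform 0.4.2, R 4.3.3), with 34 collagens removed from the 3000 variable genes. Clusters were named from 183 listed markers (3 not in the files), with naming thresholds chosen once the clusters were known. A cluster of 96 cells tied between adventitial fibroblast and chondrocyte was clustered again with 10 principal components into 56, 22, and 18 cells. The parts of 56 and 22 cells were both named adventitial fibroblast (78 cells), and the 18 chondrocyte. The part of 22 cells was the weaker match, with 7 of the 9 listed markers detected against 9 in the part of 56. The 2 parts were not compared with each other. Doublets were kept, and 156 marked cells were removed as an alternative.

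UMIs were summed per mouse and type (at least 10 cells) and tested with edgeR 4.0.16 (quasi-likelihood, TMM, filterByExpr, Benjamini-Hochberg adjustment over all genes, threshold 0.05), with DESeq2 1.42.0 as an alternative. Errors of log2 values are SEs, and other errors are SDs over mice. The SEs were derived from the edgeR test, as the absolute log2 fold change over the square root of its F statistic. The sums were made in Python 3.11.15 with SciPy 1.17.1. Intervals of UMI ratios are exact binomial 95% intervals computed in R. They, and limits from 0 counts (3 counts), cover counting error only. The types of 1 mouse share an animal, and the mouse was therefore also fitted as a block (deviations from class means correlated with *r* of -0.0937 to 0.405 over 1186 genes in 18 pairs).

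In a simulation in which 200 genes were given a log2 change of 2, edgeR recovered 100% of them for stromal cells against ECs, 100% for myofibroblast-like cells, 99.5% for AT1-like against AT2-like cells, and 88% for *Car4*-type against *Aplnr*-type ECs. Of the unchanged genes, 0.0600% to 0.0992% were called. The changed genes were drawn from those above a minimum mean level and the sums were simulated as independent. The recovery therefore does not cover members at lower levels or with smaller changes. All other genes had the same mean level in every type. In the data, 31.2% of all genes were called higher and 24.6% lower in stromal cells against ECs. The share of unchanged genes called was not simulated for so many changes. Other alternatives were stricter cell filters, collagens among the variable genes, resolutions of 0.4 and 1.2, no TMM, no filter on low counts, and leaving out each mouse. All members with at least 100 UMIs are given by mouse, and up to 5 per direction in each comparison with statistics. The members, lists, and settings were chosen with earlier results of these data known. The comparison of *Agt*/*Stc1* cells with the other stromal types was, like that of each type with each of the other 5, added after the data had been seen.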

Additional observations from a re-analysis of the deposited data

How the results depend on the processing

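Of 397 counts and ratios recomputed under the alternatives, 387 stayed within the limits set for a change and 10 moved. Of 1422 fold changes of named members, 1363 kept their direction and call, 55 kept their direction and lost the call, and 4 reversed. Without the filter on low counts, 4 collagens were lower in stromal cells than in ECs and 7 higher in *Car4*-type than in *Aplnr*-type ECs. With stricter cell filters, 1 collagen was lower in stromal than in immune cells (*Col5a3*), and with doublets removed 5 were lower in epithelial than in immune cells. DESeq2 called 8 collagens lower in myofibroblast-like cells. With collagens among the variable genes, and at a resolution of 1.2, 1 collagen was higher in *Car4*-type ECs. The fold change of *Col4a6* in myofibroblast-like cells reversed to -0.30 at a resolution of 0.4 and -0.37 at 1.2, and that of *Col12a1* in *Agt*/*Stc1* cells to -0.35 and -0.64. *Col4a5* in myofibroblast-like cells, which was not among the fold changes counted, also reversed, from 0.80 to -0.69 and -0.86. The causes of these changes were not tested. Leaving out a mouse gave 3 to 6 lower collagens in AT1-like against AT2-like cells, 2 to 3 lower in *Car4*-type against *Aplnr*-type ECs, 33 to 34 higher and 2 to 3 lower in stromal cells against ECs, and 21 to 23 above each other stromal type. The stromal share of collagen UMIs was then 79.2% to 82.2%. With the mouse as a replicate block, the calls of *Col4a3* in stromal cells against ECs (adjusted *p* = 0.0256, from 0.0585), *Col7a1* in alveolar fibroblast-like cells, *Col5a3* in *Agt*/*Stc1* cells, and *Col8a1* in smooth muscle-like cells changed, and no other call did. Types with few cells limit precision: 133 pericyte-like and 78 adventitial fibroblast-like cells gave the fewest UMIs of the stromal types tested.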
